A study of Homo sapiens with 14 samples.

Results

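The Fanconi anemia core complex was followed through 10 of its genes, FANCA, FANCB, FANCC, FANCE, FANCF, FANCG, FANCL, FANCM, FAAP24, and FAAP100. They were picked out by gene name from count tables of 59471 gene names (39032 of them counted at least once), and all 10 passed the filter on low counts in every comparison. The 14 libraries are polyA RNA-seq of SCC23 cells, an established line of head and neck squamous cell carcinoma (HNSCC), in which CRISPR/Cas9 had been directed either at KMT2D, a histone H3 lysine 4 methyltransferase (KMT2D-KO, lines KO1 and KO2), or at LacZ as a control (KMT2D-WT). All cells had been transfected with a plasmid that carries Cas9, a guide, and GFP, and no cloning of single cells is described, so that each KMT2D-KO line may be a mixture of edits. Cells were kept in high-glucose medium (+Glc) or were without glucose for 6 h (−Glc), in 2 experiments. Each glucose condition holds 3 KMT2D-WT and 4 KMT2D-KO libraries, with 1 KMT2D-WT library in experiment 1, 2 in experiment 2, and 1 library labelled for each KMT2D-KO line in either experiment. The labels do not say whether libraries of an experiment came from separate cultures, and p-values measure only the spread between libraries.

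The core complex is a ubiquitin ligase that puts a single ubiquitin on FANCD2 and FANCI when a replication fork meets a DNA interstrand crosslink, the step that hands the lesion to nucleases and homologous recombination. Its subunits are usually sorted into modules: FANCM and FAAP24 anchor the complex on DNA, FANCA and FANCG form a scaffold, FANCB, FANCL, and FAAP100 form the catalytic part in which FANCL is the RING-type ligase, and FANCC, FANCE, and FANCF form the arm through which FANCE holds FANCD2. Inherited loss of most of these subunits causes Fanconi anemia, in which cells are hypersensitive to crosslinking agents and patients are prone to HNSCC.

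Total counts ran from 15669154 to 62968057 per library, and the 4 libraries of experiment 2 in +Glc, in which either mate of a read pair was counted, were the 4 largest. Levels are given as CPM, counts relative to library size after TMM normalization over the 14 libraries. KMT2D itself had 266 to 279 CPM in KMT2D-WT cells and 182 to 184 CPM in KO1 in +Glc, but 323 and 373 CPM in the libraries labelled KO2, above KMT2D-WT. In −Glc it had 231 to 239 CPM in KMT2D-WT cells against 19.9 CPM for KO1 and 190 CPM for KO2 in experiment 1. In experiment 2 the libraries labelled KO1 and KO2 had 152 and 145 CPM. The KMT2D transcript thus did not mark the libraries labelled KO2 in +Glc as knockouts, and genotypes below are those of the labels. Over 20 genes that differ most between the lines in +Glc, the −Glc library of experiment 2 labelled KO1 lay at a distance of 3.18 log2 units from KO1 and 0.30 from KO2, so its line is in doubt. In −Glc, the KMT2D-WT libraries of experiment 2 differed from each other little more than by counting noise (chi-square per gene 1.65), as did the KMT2D-KO libraries of experiment 2 (1.71), against 23.0 to 72.7 for the other pairs. Those other pairs are not like pairs. The KMT2D-WT pair in +Glc (25.3) was counted with both mates, and the rest set KO1 against KO2. The close pairs of experiment 2 were kept apart. Each comparison that uses them was repeated with each pair summed, for the members and for the count of all genes called. All 6 squamous markers had counts in every library, KRT5, KRT14, KRT17, TP63, CDH1, and DSG3. Their sum was 198 to 753 CPM in KMT2D-KO and 443 to 566 CPM in KMT2D-WT cells in +Glc. In −Glc it was higher in KMT2D-KO cells without overlap, 674 to 2226 against 552 to 639 CPM. KRT17 alone had 366 to 1303 against 137 to 215 CPM in −Glc. In KO1 of experiment 1, KRT5, KRT14, TP63, CDH1, and DSG3 each lay below the KMT2D-WT library of that experiment. In the remaining −Glc KMT2D-KO libraries, KRT5, TP63, CDH1, and DSG3 lay above every KMT2D-WT library in −Glc. KRT14 did not. It had 253 CPM in KO2 of experiment 1 but 172 and 179 CPM in the KMT2D-KO libraries of experiment 2. KMT2D-WT cells had 184 to 229 CPM of it in −Glc. In +Glc, KRT14 was lower in KMT2D-KO cells, 26.5 to 137 against 185 to 244 CPM. PTPRC was at 0 in 13 libraries, CD3E in 11, COL1A2 in 9, and PECAM1 in 8. CDH5 had counts in every library. It was higher in KMT2D-KO cells in −Glc, 2.01 to 3.31 against 0.353 to 0.741 CPM. In +Glc the groups overlapped, 0.182 to 4.11 against 0.270 to 1.14 CPM. The summed level of the 6 markers of other cells was higher in KMT2D-KO libraries, 15.8 to 20.7 against 5.83 to 8.10 CPM in +Glc and 9.63 to 15.9 against 3.45 to 6.08 CPM in −Glc, with COL1A1 at 3.03 to 16.0 CPM over all libraries. The part of either list in the results was not tested. In bulk libraries, fewer cells of a type and less RNA per cell cannot be told apart.

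The genes lie apart in the genome, on chromosomes 16 (FANCA), X (FANCB), 9 (FANCC and FANCG), 6 (FANCE), 11 (FANCF), 2 (FANCL), 14 (FANCM), 19 (FAAP24), and 17 (FAAP100) of GRCh38. FANCM spans chr14:45135930-45200890 and FAAP24 chr19:32972209-32978229, both on the plus strand, and FANCE spans chr6:35452338-35467102 on the plus strand. FANCA spans chr16:89737549-89816657 and FANCB chrX:14835961-14873069 on the minus strand. The counting used no strand and left out reads that overlap more than 1 gene, so exonic bases shared with another gene carry no counts. None of the exonic bases of FANCB, FANCE, FANCM, FAAP24, or FAAP100 are shared. FANCA shares 23.6% with ZNF276, FANCL 19.7%, mostly with VRK2, FANCF 9.57% with GAS2, and FANCC 4.54%. FANCG shares 63.9% with VCP on the same strand, and its counts come only from the rest.

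The comparisons turn on 5 genes. Both anchor subunits had the lowest log2 fold changes of KMT2D-KO over KMT2D-WT cells in −Glc. FANCA was lower in both glucose conditions, the KMT2D-KO effect on FANCB differed between them, and FANCE was the member that was higher in −Glc. The 250 bases before the RefSeq start (GRCh38.p14) are shown for these 5 genes. Each is written in the direction of transcription, with every CCAAT and every GGGCGG in capitals, on either strand (so also ATTGG and CCGCCC). The windows are chr14:45135680-45135929 for FANCM, chr19:32971992-32972241 for FAAP24, chr16:89816648-89816897 for FANCA, chrX:14873070-14873319 for FANCB, and chr6:35452088-35452337 for FANCE.
FANCM: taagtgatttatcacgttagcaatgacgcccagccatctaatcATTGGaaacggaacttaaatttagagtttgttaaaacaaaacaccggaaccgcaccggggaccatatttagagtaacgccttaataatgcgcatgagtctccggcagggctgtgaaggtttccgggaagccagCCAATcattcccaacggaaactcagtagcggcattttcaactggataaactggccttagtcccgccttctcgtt
FAAP24: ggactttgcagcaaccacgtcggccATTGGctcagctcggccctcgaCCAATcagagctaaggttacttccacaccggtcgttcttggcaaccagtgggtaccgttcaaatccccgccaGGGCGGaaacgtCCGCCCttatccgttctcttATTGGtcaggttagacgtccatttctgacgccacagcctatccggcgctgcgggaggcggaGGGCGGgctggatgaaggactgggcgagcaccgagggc
FANCA: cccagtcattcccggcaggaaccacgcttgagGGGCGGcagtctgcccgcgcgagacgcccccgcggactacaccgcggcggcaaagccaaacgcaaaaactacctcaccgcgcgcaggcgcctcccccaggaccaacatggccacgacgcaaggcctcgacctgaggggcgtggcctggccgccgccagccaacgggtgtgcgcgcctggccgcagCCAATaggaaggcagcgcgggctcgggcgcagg
FANCB: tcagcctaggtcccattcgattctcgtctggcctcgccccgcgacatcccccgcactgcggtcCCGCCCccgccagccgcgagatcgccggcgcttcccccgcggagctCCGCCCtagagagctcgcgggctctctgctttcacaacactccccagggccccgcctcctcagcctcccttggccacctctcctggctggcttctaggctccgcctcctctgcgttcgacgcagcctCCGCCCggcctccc
FANCE: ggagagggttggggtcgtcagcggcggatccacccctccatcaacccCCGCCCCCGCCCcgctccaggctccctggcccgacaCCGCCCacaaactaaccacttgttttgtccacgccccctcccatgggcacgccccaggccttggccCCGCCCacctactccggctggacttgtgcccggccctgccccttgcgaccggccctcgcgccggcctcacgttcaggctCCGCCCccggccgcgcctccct
The first of these motifs, the CCAAT box, was found in 4 members' promoters, with 3 matches in FAAP24, 2 in FANCM, 2 in FANCF, and 1 in FANCA. The second, known as the GC box, was found in 8 members, with 5 matches in FANCE, 3 each in FAAP24 and FANCB, and 1 in FANCA, and none in FANCM and FANCF. In promoters of the same length, the first occurred in 32.0% and the second in 42.6% of 35116. The E2F letters TTTCCCGC and the variant TTTGGCGC were searched too, and 1 match stood in FANCC and at least 1 in 1.93% of all promoters. CGGAAG, the core of ETS sites, was found in FANCC and FANCF and in 16.5% of all promoters. GC content ran from 46.4% in FANCM to 78.0% in 1 of the 2 promoters listed for FANCC, with 73.6% in FANCE. FANCF had 49.2%, near FANCM, and FAAP100 had 77.2%. FANCA (72.0%) and FANCB (71.6%), both lower in −Glc, had a GC content near that of FANCE, which was higher. Matches are letters in a window, not sites.

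Per kilobase of unshared exon, FANCE had the highest median over the 14 libraries (12.7 CPM per kb), followed by FAAP100 (11.5), FANCA (11.5), FANCL (11.0), FANCG (6.34), FANCF (4.38), FANCC (2.62), FANCM (2.52), FAAP24 (2.45), and FANCB (1.15). Within the catalytic part, FAAP100 and the ligase subunit FANCL were thus among the members with the highest medians, and FANCB had the lowest. Ranges over libraries overlapped between all neighbours in this order except FANCF (3.66 to 5.99 CPM per kb) and FANCC (2.06 to 3.13 CPM per kb). As a ratio of the highest to the lowest library, FANCM ranged most widely, from 0.858 to 5.97 CPM per kb.

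**Figure D1:**
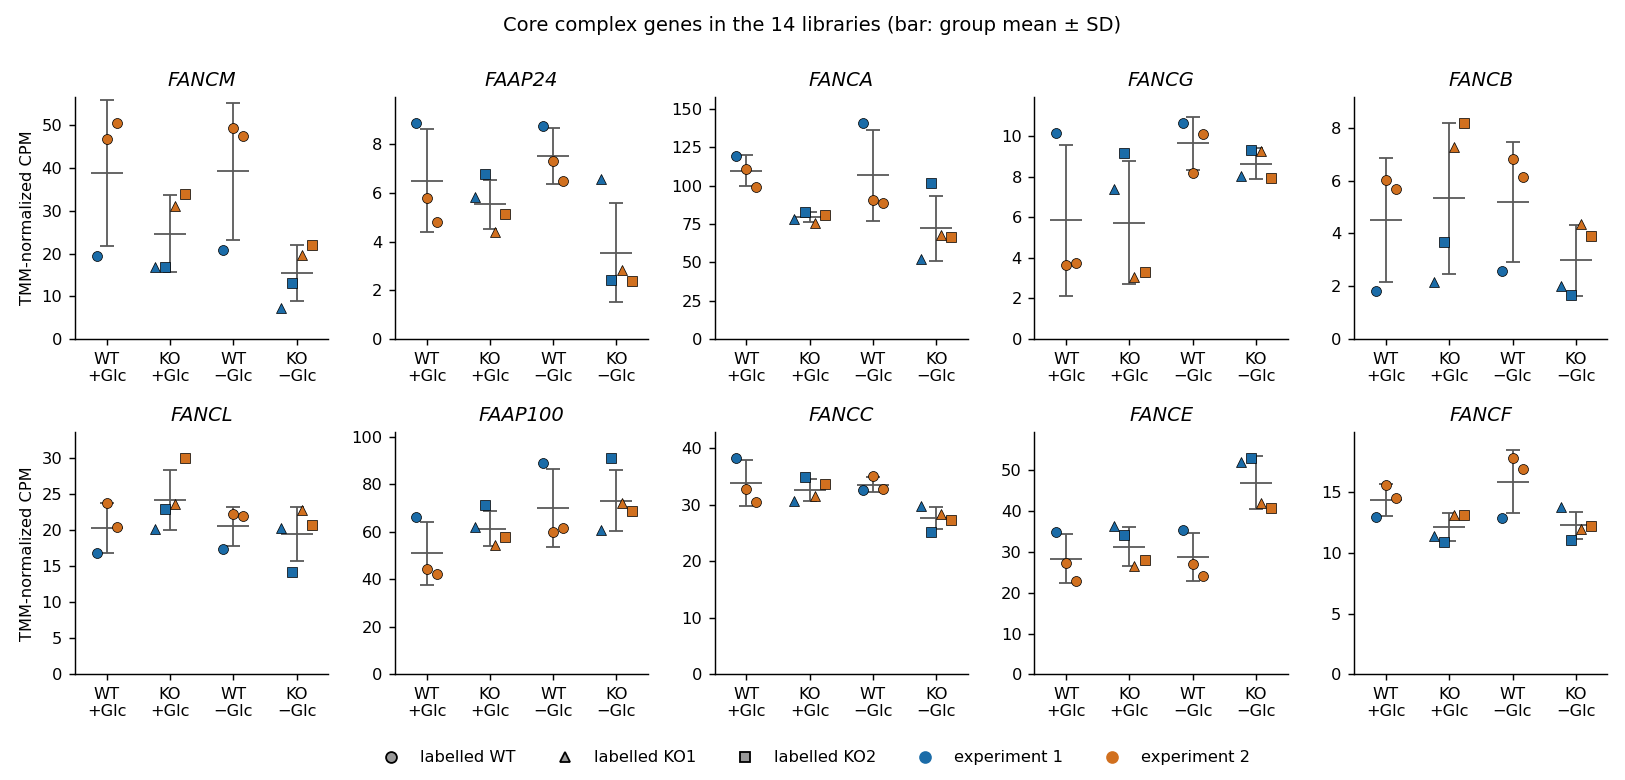
TMM-normalized CPM of the 10 genes in the 14 libraries, by genotype and glucose condition, with circles for KMT2D-WT, triangles for libraries labelled KO1, squares for KO2, color for the experiment, and a bar for the group mean ± SD. FANCM and FANCB stand lower in experiment 1 than in experiment 2 in every group, and FANCE in KMT2D-KO cells in −Glc lies above all other groups.

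Experiments differed as much as genotypes for several members. In KMT2D-WT cells in +Glc, FANCM had 19.3 CPM in experiment 1 and 46.7 and 50.7 CPM in experiment 2, and FANCB had 1.81 against 6.02 and 5.69 CPM. FANCG went the other way, with 10.1 CPM in experiment 1 and 3.66 and 3.73 CPM in experiment 2. Experiment was therefore a covariate in each fit, and log2 fold changes are given ± SE. Their p-values are those of the edgeR quasi-likelihood test, adjusted by Benjamini-Hochberg over all genes tested, with a limit of 0.05.

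The first comparison was that of KMT2D-KO with KMT2D-WT cells in −Glc. Of the 10 members, 5 were lower (FANCM, FAAP24, FANCA, FANCB, and FANCC), FANCE was higher, and FANCF, FANCG, FANCL, and FAAP100 did not pass the test. In this comparison 50.8% of the 16782 genes tested were called, 24.9% lower and 25.9% higher, so that 6 calls among 10 members are near what genes in general showed. The members' median log2 fold change was −0.32, against 0.00 for all genes, and members ran from −1.24 to 0.62.

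The anchor subunits had the lowest log2 fold changes, with 95% intervals that overlapped those of other members, such as FANCA. Within experiment 1, FAAP24 (−0.939) and FANCA (−0.944) had like values on log2(CPM + 1). FANCM, the DNA translocase of the complex, had 20.8 CPM in the KMT2D-WT library of experiment 1 and 49.3 and 47.6 CPM in those of experiment 2. In the libraries labelled KMT2D-KO it had 7.27 (KO1) and 13.1 CPM (KO2) in experiment 1 and 19.6 and 21.9 CPM in experiment 2. Within either experiment each KMT2D-KO library lay below each KMT2D-WT library, whereas the pooled groups overlapped because of the experiments. With 1 KMT2D-WT library in experiment 1 and close pairs in experiment 2, many genes may separate in this way. The share of all genes that do so within experiments was not counted, for FANCM or for the members below. The log2 fold change was −1.17 ± 0.18, 0.444 times the KMT2D-WT level (95% interval of the log2 value −1.59 to −0.76, edgeR adjusted p = 0.00169). FANCM remained below the limit in all 7 fits that left out 1 library, but with the close pairs of experiment 2 summed its adjusted p from edgeR was 0.0533 (log2 fold change −1.12).

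FAAP24, the small partner through which FANCM is held on DNA, had 8.75, 7.32, and 6.49 CPM in KMT2D-WT cells and 6.58 (KO1, experiment 1), 2.41, 2.85, and 2.39 CPM in KMT2D-KO cells. Its KMT2D-KO libraries fell to less than 3 CPM except KO1 of experiment 1, which lay just within the KMT2D-WT range, the same library that had the lowest KMT2D level. This gave a log2 fold change of −1.24 ± 0.34 (edgeR adjusted p = 0.0212), on counts of 43 to 105 per KMT2D-KO library. Without KO1 of experiment 1 it was −1.58 (edgeR adjusted p = 9.5e-09). That fit holds 1 library per genotype in experiment 1, so its spread comes in large part from the close pairs. Its small p-value is thus not a measure of a firmer fall. The FAAP24 call held in 2 of 7 fits that left out 1 library. It was lost when any KMT2D-WT library or either KMT2D-KO library of experiment 2 was left out (edgeR adjusted p up to 0.0864).

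In the scaffold, FANCA had 141, 90.4, and 88.4 CPM in KMT2D-WT cells and 52.0 (KO1, experiment 1), 102 (KO2, experiment 1), 68.1, and 66.2 CPM in KMT2D-KO cells. The pooled groups overlapped, but within experiments they did not. With experiment as covariate the log2 fold change was −0.62 ± 0.20 (edgeR adjusted p = 0.0374), −0.94 within experiment 1 and −0.41 within experiment 2 on log2(CPM + 1). The call held in the fits without KO1 or KO2 of experiment 1 and in no other that left out 1 library (edgeR adjusted p up to 0.234). FANCG, its scaffold partner, had 8.18 to 10.7 CPM in KMT2D-WT cells and 7.91 to 9.31 CPM in KMT2D-KO cells, with a log2 fold change of −0.19 (95% interval −0.50 to 0.12, edgeR adjusted p = 0.254).

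In the catalytic part, FANCB had 2.58, 6.81, and 6.13 CPM in KMT2D-WT cells and 2.01, 1.68, 4.37, and 3.89 CPM in KMT2D-KO cells. It was lower in each KMT2D-KO library than in any KMT2D-WT library of the same experiment. The log2 fold change was −0.62 ± 0.16 (edgeR adjusted p = 0.0159), and it passed in 3 of the 7 fits without 1 library. The ligase subunit FANCL had 17.4 to 22.2 CPM in KMT2D-WT cells and 14.1 to 22.8 CPM in KMT2D-KO cells, with a log2 fold change of −0.04 (95% interval −0.39 to 0.31, edgeR adjusted p = 0.842). For FAAP100, which binds FANCB and FANCL, 59.9 to 89.0 CPM stood against 60.6 to 91.0 CPM, with a log2 fold change of 0.01 (95% interval −0.31 to 0.34, edgeR adjusted p = 0.949).

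The arm that holds FANCD2 was split. FANCE rose. It had 35.5, 27.0, and 24.1 CPM in KMT2D-WT cells and 52.1, 53.1, 42.1, and 40.7 CPM in KMT2D-KO cells, so that the groups did not overlap in either experiment or pooled. The log2 fold change was 0.62 ± 0.07, 1.54 times the KMT2D-WT level (edgeR adjusted p = 6.41e-04), and it passed in all 7 fits without 1 library and with the close pairs summed (0.62, edgeR adjusted p = 0.0411). FANCC had 32.6 to 35.0 CPM in KMT2D-WT cells and 25.2 to 29.8 CPM in KMT2D-KO cells, also without overlap, and a small fall of −0.29 ± 0.10 (edgeR adjusted p = 0.0473) that did not pass in 5 of 7 fits without 1 library and was −0.07 with an offset for gene length (edgeR adjusted p = 0.710). FANCF, the adaptor of the arm, had 12.9, 17.8, and 16.9 CPM against 13.8, 11.1, 12.0, and 12.2 CPM and did not pass (−0.36, 95% interval −0.74 to 0.01, edgeR adjusted p = 0.0964), although it did without KO1 of experiment 1 (−0.48, edgeR adjusted p = 6.2e-05) and when the KMT2D-WT library of experiment 1 was left out (−0.58, edgeR adjusted p = 0.0421). Both of these p-values rest in large part on the spread within the close pairs of experiment 2. FANCC and FANCE were the members whose pooled groups did not overlap, and 18.9% of all genes tested lay lower and 16.3% higher without overlap.

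How many members count as lower in −Glc depended on the libraries. Against 5 with all 7 libraries, 6 were lower without KO1 of experiment 1, 5 without KO2 of experiment 1, 3 when the KMT2D-WT library of experiment 1 was omitted, and 1, FANCM, without any single library of experiment 2, among them the library labelled KO1 whose line is in doubt. Over these fits the number of all genes called ran from 6031 to 12448. The counts of members are thus not results about the members alone. With the close pairs summed no member passed as lower, and 2785 genes were called in place of 8521. The values then were −1.12 for FANCM (edgeR adjusted p = 0.0533), −1.15 for FAAP24 (edgeR adjusted p = 0.164), −0.68 for FANCA (edgeR adjusted p = 0.168), −0.57 for FANCB (edgeR adjusted p = 0.204), and −0.26 for FANCC (edgeR adjusted p = 0.314). FANCE passed as higher in each of these fits.

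In +Glc, KMT2D-KO cells had lower FANCA and FANCM, no member passed as higher, and 8 did not pass, where 24.7% of 20423 genes were called, 11.7% lower and 13.0% higher. The median log2 fold change of the members was −0.13, against 0.02 for all genes. FANCA had 120, 111, and 99.2 CPM in KMT2D-WT cells and 78.1, 82.7, 75.9, and 81.2 CPM in KMT2D-KO cells. These groups did not overlap, the only member for which this held here, as for 10.4% of all genes in this direction and 9.66% in the other. The log2 fold change was −0.47 ± 0.08 (edgeR adjusted p = 0.0037), with close values in KO1 and KO2, and it passed in 6 of 7 fits without 1 library, the exception being that without the KMT2D-WT library of experiment 1 (−0.43, edgeR adjusted p = 0.0600).

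FANCM in +Glc had 19.3, 46.7, and 50.7 CPM in KMT2D-WT cells and 16.8, 16.9, 31.2, and 33.8 CPM in KMT2D-KO cells. The gap was wider in experiment 2 (−0.57 on log2(CPM + 1)) than in experiment 1 (−0.18). Its log2 fold change was −0.43 ± 0.11 (edgeR adjusted p = 0.0225), and the call was lost without any single library of experiment 2 (edgeR adjusted p 0.0534 to 0.0950). Its partner FAAP24 had 8.90, 5.80, and 4.83 CPM against 5.84, 6.78, 4.39, and 5.15 CPM and did not pass (−0.28, 95% interval −0.66 to 0.09, edgeR adjusted p = 0.258).

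The catalytic subunits had positive values in +Glc that did not pass with both lines together. FANCB had 1.81, 6.02, and 5.69 CPM in KMT2D-WT cells and 2.15, 3.68, 7.27, and 8.19 CPM in KMT2D-KO cells, so that within either experiment the KMT2D-KO libraries lay above KMT2D-WT, with a log2 fold change of 0.50 ± 0.21 (edgeR adjusted p = 0.126). FANCL gave 0.32 ± 0.13 (adjusted p = 0.103) and FAAP100 0.23 ± 0.10 (edgeR adjusted p = 0.141). With KO2 alone against KMT2D-WT all 3 passed, FANCB at 0.65 (adjusted p = 0.0140), FANCL at 0.45 (adjusted p = 0.00475), and FAAP100 at 0.30 (edgeR adjusted p = 0.0221). With KO1 alone none of them did, FANCB at 0.29 (adjusted p = 0.281), FANCL at 0.16 (adjusted p = 0.361), and FAAP100 at 0.16 (edgeR adjusted p = 0.293). The shares of all genes called with either line alone are not given here. These calls are therefore not shown to be particular to the catalytic part. The direct test of KO2 against KO1 in +Glc called 4574 of all genes. In it FANCL was higher in KO2 by 0.28 ± 0.11 (edgeR adjusted p = 0.0492), and the other 9 members did not pass (edgeR adjusted p 0.210 to 0.987). FANCE, which rose in −Glc, had 34.8, 27.3, and 22.9 CPM against 36.4, 34.2, 26.5, and 27.9 CPM here, a log2 fold change of 0.08 (95% interval −0.14 to 0.31, edgeR adjusted p = 0.592).

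**Figure D2:**
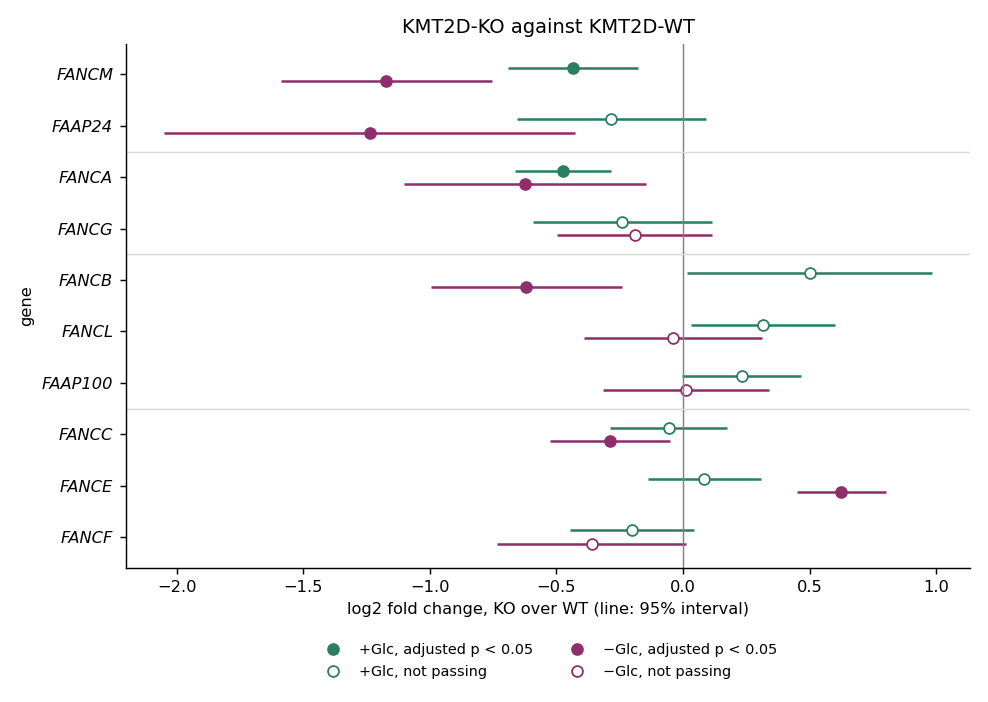
log2 fold change of KMT2D-KO over KMT2D-WT cells for the 10 genes, in +Glc (green) and −Glc (purple), with 95% intervals, filled points for adjusted p under 0.05, and gray lines between the modules. FANCA and FANCM are below 0 in both conditions, FANCB lies on opposite sides of 0, and FANCE is filled above 0 in −Glc alone.

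The difference between these KMT2D-KO effects was tested in 1 fit of all 14 libraries, in which 11.3% of 18678 genes were called, 6.54% lower and 4.73% higher. It passed for FANCB, at −1.09 ± 0.26 (edgeR adjusted p = 0.0222), and for FANCE, at 0.56 ± 0.12 (edgeR adjusted p = 0.0148). In FANCB, KMT2D-KO libraries lay above KMT2D-WT in +Glc and below it in −Glc in both experiments, by 0.45 and −0.34 on log2(CPM + 1) in experiment 1 and by 0.35 and −0.54 in experiment 2. Because the line of the −Glc library of experiment 2 labelled KO1 is in doubt, the lines may be spread unevenly over the glucose conditions. Line and glucose cannot then be told apart in this test. The FANCB call was lost in 7 of 14 fits that left out 1 library, those of any KMT2D-WT library except 1 of experiment 2 in +Glc and those of either KMT2D-KO library of experiment 2 in −Glc (edgeR adjusted p up to 0.0818). The FANCE call was lost in 2, those without the KMT2D-WT library of experiment 1 in +Glc (edgeR adjusted p = 0.0686) and without 1 KMT2D-WT library of experiment 2 in −Glc (edgeR adjusted p = 0.0528). With the close pairs summed neither passed, FANCB at −1.07 (edgeR adjusted p = 0.143) and FANCE at 0.55 (edgeR adjusted p = 0.121), and 258 genes were called in place of 2105. FANCM (−0.71 ± 0.22, edgeR adjusted p = 0.0591) and FAAP24 (−0.94 ± 0.37, edgeR adjusted p = 0.122) did not pass, so their larger falls in −Glc are not shown to differ from +Glc. For FANCA the difference was −0.12, with a 95% interval from −0.66 to 0.42 (edgeR adjusted p = 0.801).

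Removal of glucose was then compared within each genotype. In experiment 2 the −Glc libraries are single-end and the +Glc libraries were counted with both mates, so counting and glucose cannot be told apart there, and values of experiment 1 are given beside. In KMT2D-WT cells, FAAP100 rose and the other 9 members did not pass, where 14.7% of 17227 genes were called, 7.58% lower and 7.15% higher. The pooled glucose groups overlapped for all 10 members, whereas 12.2% of all genes lay lower and 9.54% higher without overlap. FAAP100 had 66.3, 44.4, and 42.2 CPM in +Glc and 89.0, 59.9, and 61.4 CPM in −Glc. FAAP100 thus had a log2 fold change of 0.48 ± 0.05 (edgeR adjusted p = 0.0168), 0.42 within experiment 1 and 0.48 within experiment 2 on log2(CPM + 1), but it held in only 2 of the 6 fits that left out 1 library, those without a library of experiment 1 (edgeR adjusted p 0.0604 to 0.162 in the others, where at most 1 gene of all tested was called). With the −Glc pair of experiment 2 summed it was 0.49 (edgeR adjusted p = 0.173), with 1 gene called. FANCM barely moved in KMT2D-WT cells, with 19.3, 46.7, and 50.7 CPM in +Glc and 20.8, 49.3, and 47.6 CPM in −Glc (0.04, 95% interval −0.12 to 0.19, edgeR adjusted p = 0.677).

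In KMT2D-KO cells, FANCB and FANCM fell with glucose removal and FANCE rose, where 30.0% of 16057 genes were called, 16.0% lower and 14% higher. FANCM had 16.8, 16.9, 31.2, and 33.8 CPM in +Glc and 7.27, 13.1, 19.6, and 21.9 CPM in −Glc, a log2 fold change of −0.71 ± 0.18 (edgeR adjusted p = 0.0233). FANCB had 2.15, 3.68, 7.27, and 8.19 CPM in +Glc and 2.01, 1.68, 4.37, and 3.89 CPM in −Glc, a log2 fold change of −0.81 ± 0.23 (edgeR adjusted p = 0.0334). Both directions stood in either experiment, at −0.73 and −0.62 for FANCM and −0.44 and −0.77 for FANCB on log2(CPM + 1) in experiments 1 and 2. In experiment 1, FANCB went from 2.15 to 2.01 CPM in KO1 and from 3.68 to 1.68 CPM in KO2. FANCM went from 16.8 to 7.27 CPM in KO1 and from 16.9 to 13.1 CPM in KO2. With the line of a −Glc library of experiment 2 in doubt, line may go with glucose here, and they cannot then be told apart. FANCE rose by 0.57 ± 0.08 (edgeR adjusted p = 0.00397), by 0.56 and 0.59 within the experiments, from 26.5 to 36.4 CPM over the +Glc libraries to 40.7 to 53.1 CPM over the −Glc libraries, and passed in all 8 fits without 1 library. The FANCM call held in 4 of those 8 fits and the FANCB call in 2, and no member passed as lower without the +Glc KO2 library of experiment 2 or without either −Glc KMT2D-KO library of experiment 2. With the −Glc pair of experiment 2 summed, FANCE passed (0.59, edgeR adjusted p = 0.0227), and FANCM (−0.69, edgeR adjusted p = 0.0703) and FANCB (−0.76, edgeR adjusted p = 0.120) did not. The −Glc groups stood clear of the +Glc groups in FANCE (higher) and FANCC (lower), as in 9.24% and 13.0% of all genes, although FANCC did not pass the test (−0.26 ± 0.10, edgeR adjusted p = 0.0929).

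FANCG had large positive values for glucose removal that came from experiment 2. In KMT2D-WT cells it had 10.1 CPM in +Glc and 10.7 CPM in −Glc in experiment 1, and 3.66 and 3.73 CPM against 8.18 and 10.1 CPM in experiment 2. In KMT2D-KO cells the pattern was alike, with 7.37 and 9.15 CPM against 8.02 and 9.31 CPM in experiment 1 and 3.06 and 3.30 CPM against 9.25 and 7.91 CPM in experiment 2. The low values are thus those of the 4 libraries counted with both mates. The log2 fold changes were 0.91 ± 0.28 in KMT2D-WT (edgeR adjusted p = 0.0806) and 0.73 ± 0.30 in KMT2D-KO cells (edgeR adjusted p = 0.103), and within experiment 1 both were 0.07 on log2(CPM + 1).

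**Figure D3:**
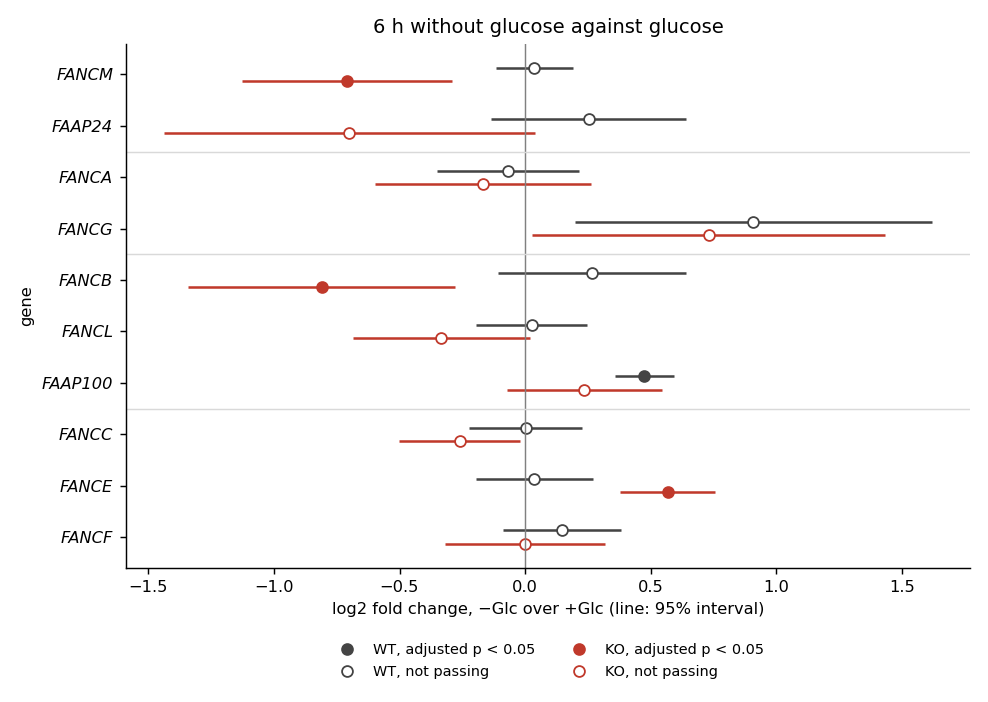
log2 fold change of −Glc over +Glc for the 10 genes in KMT2D-WT (black) and KMT2D-KO cells (red), with 95% intervals and filled points for adjusted p under 0.05. In KMT2D-WT cells FAAP100 alone is filled, while in KMT2D-KO cells FANCM and FANCB are filled below 0 and FANCE above 0, and FANCG has the widest intervals above 0.

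The rest of the pathway was counted in 33 further genes. In −Glc, 15 were lower in KMT2D-KO cells, 4 were higher, and 14 did not pass, with a median log2 fold change of −0.26. In +Glc, 6 were lower and 1 was higher, with a median of −0.13. The difference between the glucose conditions passed for 9 of them, 8 toward lower and 1 toward higher values in −Glc. These counts are to be read against the 50.8%, 24.7%, and 11.3% of all genes called in the same comparisons. By direction, 24.9% of all genes were lower and 25.9% higher in −Glc, and 11.7% and 13.0% in +Glc. For the difference the shares were 6.54% and 4.73%. The counts for the 33 genes were not repeated with libraries left out. Of the 4 remaining partners of the core complex, FAAP20, CENPS, CENPX, and UBE2T, none was lower in either condition, and CENPX, a histone-fold partner of FANCM, was higher in −Glc (0.35 ± 0.12, edgeR adjusted p = 0.0476). The substrates of the complex were a little lower in −Glc, FANCD2 by −0.30 ± 0.07 (edgeR adjusted p = 0.00992) and FANCI by −0.34 ± 0.07 (edgeR adjusted p = 0.0053), while WDR48, the partner of the deubiquitinase USP1, was higher (0.50 ± 0.11, edgeR adjusted p = 0.0095).

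Beyond the ubiquitination step, the nucleases SLX4, the scaffold of several endonucleases (−1.54 ± 0.16), ERCC4 (−1.19 ± 0.30), FAN1 (−1.03 ± 0.09), and EME1 (−0.89 ± 0.12) were lower in −Glc and MUS81, the partner of EME1, was higher (0.52 ± 0.06). The dissolvasome, which takes apart crossed DNA strands, was lower in all 4 genes, BLM, TOP3A, RMI1, and RMI2, between −0.86 and −0.43. Of all genes tested, 24.9% were lower in −Glc. Among 7 homologous recombination genes, BRCA1 (−0.87 ± 0.09) and XRCC2 (−0.60 ± 0.09) were lower in −Glc and the other 5, among them BRCA2 and PALB2, did not pass. REV3L (−0.95 ± 0.09) and REV1 (−0.57 ± 0.09), a polymerase subunit and a polymerase of translesion synthesis, were lower and their partner MAD2L2 was higher (0.71 ± 0.16). The checkpoint kinase ATR was lower (−0.76 ± 0.11), while the 3 RPA subunits listed and ATRIP did not pass. Values below FANCM's −1.17 were reached only by SLX4 and ERCC4 in this list.

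**Figure D4:**
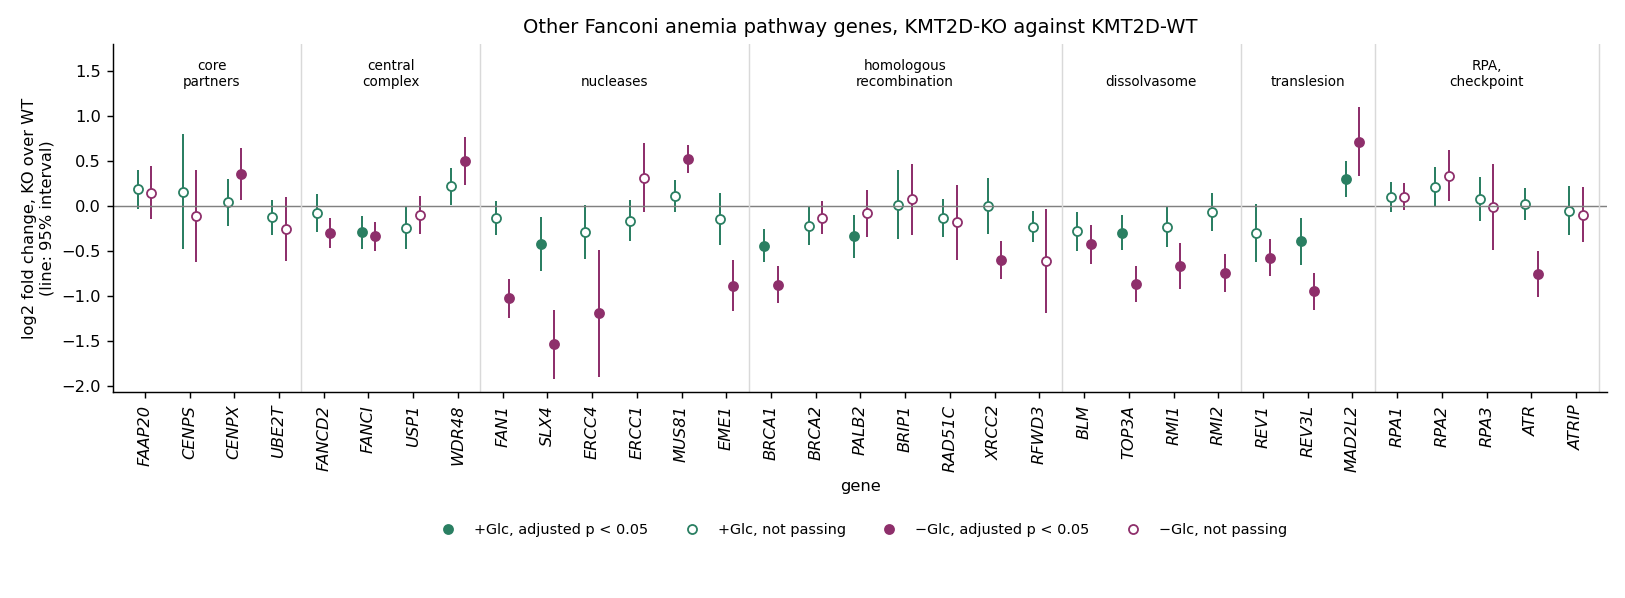
log2 fold change of KMT2D-KO over KMT2D-WT cells for 33 other genes of the pathway, grouped by role, in +Glc (green) and −Glc (purple), with 95% intervals and filled points for adjusted p under 0.05. SLX4 at −1.54 is the lowest point, all 4 dissolvasome genes are filled below 0 in −Glc, and MAD2L2 at 0.71 is the highest.

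Of 18 genes of replication and proliferation, 7 were lower and 3 higher in KMT2D-KO cells in −Glc. There 50.8% of all genes were called, 24.9% lower and 25.9% higher. In +Glc, where 24.7% of all genes were called, 11.7% lower and 13.0% higher, 6 of the 18 were lower and 1 was higher. Their summed level was 4020 to 4756 CPM in KMT2D-KO and 5619 to 5928 CPM in KMT2D-WT cells in −Glc, and 4601 to 4929 against 6447 to 7440 CPM in +Glc, without overlap in either. MKI67, a marker of cycling cells singled out after its values were seen, had 432 to 598 CPM in KMT2D-KO and 1531 to 1893 CPM in KMT2D-WT cells in −Glc. Without it the sums overlapped in −Glc, 3507 to 4324 against 4028 to 4088 CPM, with KO1 of experiment 1 at the top, and stood apart in +Glc, 3536 to 3758 against 4293 to 4462 CPM. The 3 that were higher in −Glc were MCM2 and MCM4, subunits of the replicative helicase (0.41 ± 0.06 and 0.93 ± 0.05), and CDT1, its loading factor (0.98 ± 0.06). The part of these genes in the values of the members was not tested.

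Over the 14 libraries, centred within experiment and glucose condition on log2(CPM + 1), the 45 pairs of members had a median Pearson r of 0.23, and 29 were positive. Members that share a module did not always go together. FANCM and FAAP24 had an r of 0.60 and FANCA and FANCG of 0.75, but FANCE had −0.67 with FANCC and −0.71 with FANCF, its partners in the arm. The highest value was 0.93 for FAAP24 and FANCC and the lowest −0.88 for FANCE and FANCM. These r are descriptions over libraries that share the contrast of genotype, and points of a group share their depth and counting.

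**Figure D5:**
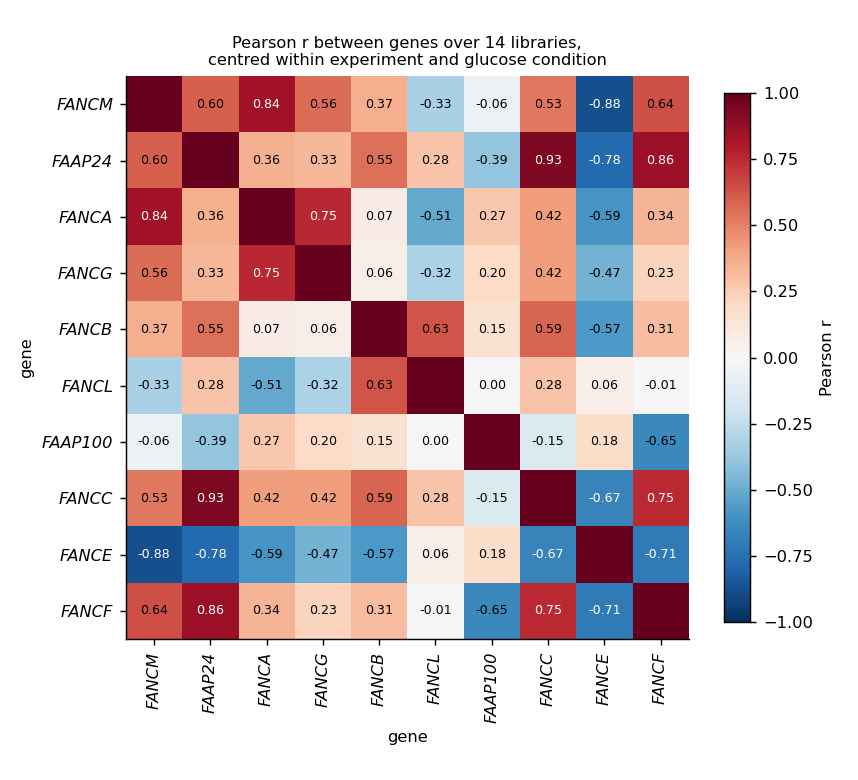
Pearson r between each pair of the 10 genes over 14 libraries, on log2(CPM + 1) centred within experiment and glucose condition, from −1 (blue) to 1 (red). The row of FANCE is blue against FANCM (−0.88), FAAP24 (−0.78), FANCF (−0.71), and FANCC (−0.67).

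Among 14258 other genes with a mean of at least 1 CPM, the one most like each member by the same measure was DYNC1H1 for FANCA (r = 0.997), DNAJC28 for FANCM (0.984), AASDH for FAAP24 (0.975), TEAD4 for FANCE (0.974), GINS1 for FANCB (0.971), DFFB for FANCC (0.964), CSGALNACT1 for FANCF (0.963), HIVEP1 for FAAP100 (0.950), PAGR1 for FANCL (0.926), and VASH2 for FANCG (0.905). None of these is another gene of the pathway list. Each is the highest r of a search over many genes, given as a description.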

How the data were processed

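RNA-seq libraries of SCC23 cells were grouped by the genotype and glucose condition in their labels. According to the methods, the authors aligned reads to hg38 with HISAT2 and counted them with featureCounts. Per the file headers, counting was per gene name on release 102 of the GRCh38 annotation, without strand and on primary alignments, and the deposited values are raw counts. The 4 libraries of experiment 2 in +Glc were counted with each mate separately, which leaves even numbers in 67.4% to 70.6% of their counts from 1 to 10, and the other 10 are single-end. The precision of each value is taken from the spread between libraries. In the close pairs of −Glc libraries of experiment 2, that spread was little more than counting error. In members with low counts, such as FANCB and FAAP24, counting error is a larger part of it.

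Counts were fitted in R 4.3.3 with edgeR 4.0.16 (genes kept by filterByExpr by group, minimum count 10, TMM, quasi-likelihood test, Benjamini-Hochberg adjustment over all genes tested, limit 0.05) in 5 comparisons, each with experiment as covariate. The study names DESeq2 with no covariate, which was an alternative (DESeq2 1.42.0). CPM were computed over all 14 libraries, and values within experiments and correlations used log2(CPM + 1). Genotypes shared an experiment rather than a numbered sample. Differences between experiments correlated between KMT2D-WT and KMT2D-KO at 0.946 in +Glc and 0.881 in −Glc over 14268 genes, and experiment was kept as the block. The steps were tested on simulated data.

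The members, the 33 other pathway genes, and the 18 replication genes were chosen with earlier results of these data known. A further pathway gene of the list is not reported here. The genes named by rule are the members, KMT2D, the other pathway genes, and for each member the most alike gene. Cell markers, genes that share exonic bases with members, and 4 replication genes are named beside them. Alternatives were no covariate, DESeq2, RLE scaling, no filter, an offset for gene length, single experiments and lines, 1 fit of all libraries, summed close pairs (beyond KMT2D-KO against KMT2D-WT in −Glc added after seeing the data), halved counts of the both-mate libraries, and each library left out in turn. Promoters came from RefSeq (GRCh38.p14), and all 10 members matched. The ChIP-seq data and other assays were not analysed here.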

Additional observations from a re-analysis of the deposited data

Results flagged for a closer look

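In KMT2D-KO cells in −Glc, FAAP24 had 6.58 CPM in the library of KO1 in experiment 1, a value far from the other 3 libraries of its group, 2.39, 2.41, and 2.85 CPM (gap divided by range 0.89, above Dixon's limit). Chance flags about 1 in 20 such groups, and 20 groups of 4 libraries were looked at. The limit is for 4 separate values, whereas 2.39 and 2.85 CPM come from a close pair, so passing it says less here. The library of KO1 in experiment 1 also had the lowest KMT2D level, 19.9 CPM. Of the other 3, the library of experiment 2 labelled KO1 lay nearer to KO2 (0.30 against 3.18 log2 units) and differed little from the KO2 library of that experiment (chi-square per gene 1.71), so that the high value may be the only one of KO1, and line and library cannot be told apart here.

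The KMT2D-KO effect differed between the glucose conditions for FANCB, by −1.09 on the log2 scale (edgeR, adjusted p = 0.0222), and for FANCE, by 0.56 (edgeR, adjusted p = 0.0148), both in 1 fit of all 14 libraries. Neither passed with the close pairs summed (edgeR adjusted p = 0.143 and 0.121). FANCB was higher in KMT2D-KO libraries in +Glc and lower in −Glc within either experiment, while FANCE differed in −Glc alone. With the line of a −Glc KMT2D-KO library in doubt, line and glucose may not be told apart in this fit.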

How the results depend on the processing

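The members' calls rest on few libraries, on experiment as the block, and on pairs of close libraries, and low counts (30 to 482 for FANCB) limit the precision of single members. Without the replicate block, that is with experiment left out, genes called in −Glc went from 8521 to 3659 and members called lower from 5 to 1 (FANCM), genes called in +Glc from 5042 to 971 and lower members from 2 to 0, and those for the difference between conditions from 2105 to 70, with 0 members lower and 0 higher. For glucose removal it left 2 of 2536 genes in KMT2D-WT cells with 0 members higher, and 1465 of 4813 in KMT2D-KO cells with 0 members lower and 0 higher. DESeq2 without a covariate called 4821 genes and 1 lower member in −Glc and 2577 genes and 1 lower member in +Glc. DESeq2 with experiment called 3473 genes for the difference (2 members lower) and 6213 for glucose removal in KMT2D-WT cells (2 members higher), with 2 members higher in KMT2D-KO cells. RLE scaling and the offset for gene length each left 3 members lower in −Glc. Where a count of members stands here without a count of all genes, it cannot be set against genes in general. Without the filter, the difference had 2 members lower and 0 higher, glucose removal in KMT2D-WT cells 5560 genes and 2 members higher, and in KMT2D-KO cells 1 member lower. Experiment 1 alone holds 1 KMT2D-WT library and 1 of each KMT2D-KO line per condition, so that its spread comes from different lines and its low counts say nothing about stability. It gave 0 genes and 0 members in either direction in −Glc, 304 genes and 0 lower members in +Glc, and 0 genes and 0 members in either direction for glucose removal in KMT2D-KO cells. Experiment 2 alone, in −Glc a comparison of the close pairs, gave 12888 genes and 2 higher members in −Glc and 2336 genes and 1 lower member in +Glc. With the close pairs summed, 2785 genes and 0 lower members were called in −Glc, and, in fits added after seeing the data, 258 genes with 0 members lower and 0 higher for the difference, 1 gene and 0 higher members for glucose removal in KMT2D-WT cells, and 2282 genes and 0 lower members in KMT2D-KO cells. In further fits, all 14 libraries in 1 fit gave 0 lower members in +Glc, and KO2 alone gave 3 higher members in +Glc.

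With each library left out in turn, 6031 to 12448 genes, 1 to 6 lower members, and 1 to 2 higher members were called in −Glc, and 2142 to 5048 genes, 1 to 2 lower, and 0 to 1 higher members in +Glc. The ranges were 788 to 4230 genes, 0 to 3 lower, and 0 to 1 higher members for the difference, 0 to 8747 genes, 0 to 1 lower, and 0 to 2 higher members for glucose removal in KMT2D-WT cells, and 1991 to 6553 genes, 0 to 3 lower, and 1 to 3 higher members in KMT2D-KO cells.

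Of 830 alternatives for single members, 668 kept direction and side of the limit, 96 fell past it, 26 came under it, and 40 changed sign, all from values near 0. In −Glc, FANCL was 0.012 with DESeq2 and experiment and with RLE scaling, 0.015 with the length offset, and −0.14 to 0.026 without 1 library, and FAAP100 was −0.23 in experiment 1 alone, −0.044 with close pairs summed, and −0.065 to 0.16 without 1 library. In +Glc, FANCC was 0.0079 with the length offset, 0.010 in KO2 alone, 0.031 in experiment 2 alone, and −0.11 to 0.030 without 1 library. For the difference, FANCG was −0.13 without the block and −0.021 to 0.16 without 1 library, and FANCA −0.25 to 0.074. For glucose removal in KMT2D-WT cells, FANCC was −0.0033 without the block, −0.0078 with the close pair summed, and −0.068 to 0.11 without 1 library, FANCA −0.22 to 0.021, FANCE −0.040 to 0.11, and FANCL −0.037 to 0.097. In KMT2D-KO cells FANCF was 0.065 with DESeq2, 0.072 with RLE scaling, 0.028 without the filter, 0.0042 with halved counts, 0.057 with the close pair summed, 0.12 in experiment 1 alone, and −0.083 to 0.059 without 1 library. The cause of these changes was not tested.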
